A study of Homo sapiens with 20 samples.

Results

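The 9 genes described here encode enzymes that make asparagine, aspartate, alanine, proline and cysteine in human cells, or that break proline down. They are ASNS, the aminotransferases GOT1 and GPT2, the transsulfuration enzymes CBS and CTH, the proline synthesis enzymes ALDH18A1, PYCR1 and PYCR3, and the proline oxidase PRODH. They were chosen by name, and each was found by its Ensembl ID among the 57500 genes counted in every one of 20 libraries. PRODH passed the filter on weakly expressed genes in the comparison of WT cells and in the fit of all 20 libraries, and the other 8 enzymes passed it in every comparison.

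The libraries came from NTERT cells, an immortalized human keratinocyte line that expresses hTERT. WT cells and cells with GCN2 removed by CRISPR/Cas9 (GCN2KO) were either left unwounded or harvested 6 h after a high-density wound (HDW), with 5 replicates in each of the 4 groups. In the methods for HDW a confluent monolayer is first held for 36 h in medium with 2% FBS and 2 mM calcium, which starts keratinocyte differentiation. A longer time is given elsewhere in the sources, and none is given for these cultures in particular. HDW was made by dragging rows of pipet tips spaced 5 mm apart across the monolayer in crossing directions. The GCN2KO cells were an early-passage pool of edited cells and not a clone, WT denotes cells given a control sgRNA, and which of the guide RNAs described was used for these cultures is not given in the sources used here. The paper calls the n of its figure legends biological replicates and gives n = 5 for read counts of this RNA-seq. No source says whether the replicates were separate experiments. The p-values therefore measure the spread between these samples, which may be that of parallel cultures of a single experiment.

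The mRNA of EIF2AK4, which encodes GCN2, averaged 4355 ± 149 (SD, n = 5) normalized read counts in the unwounded and 4194 ± 129 (SD, n = 5) in the wounded WT group, against 894 ± 61.8 (SD, n = 5) and 874 ± 66.5 (SD, n = 5) in the corresponding GCN2KO groups. A normalized read count is the count of a gene scaled to a common library size with TMM factors over the 20 libraries. Library totals ran from 14083504 to 34611570 counts, and the 5 WT unwounded libraries held 14083504 to 30505904. The 8 keratinocyte markers summed to 12300 to 12700 CPM (counts relative to TMM-scaled library size) in WT unwounded, 13600 to 14500 in WT HDW, 13900 to 16200 in GCN2KO unwounded and 16600 to 18100 in GCN2KO HDW cells, 1 of them with a mean under 1 CPM. KRT5 makes up most of that sum, and other members ran differently between genotypes. In unwounded cells the basal keratin gene KRT14 averaged 63316 ± 1900.5 (SD, n = 5) normalized read counts in WT and 35134 ± 3755 (SD, n = 5) in GCN2KO cells. TP63, a transcription factor of basal keratinocytes, averaged 12016 ± 349 (SD, n = 5) in WT and 8346 ± 555 (SD, n = 5) in GCN2KO cells. IVL, which encodes involucrin of differentiating keratinocytes, averaged 3126 ± 255 (SD, n = 5) in WT and 11072 ± 2637 (SD, n = 5) in GCN2KO cells. The genotypes overlapped in none of these 3 genes. The basal keratin gene KRT5 went the other way from KRT14, with 233780 ± 5393 (SD, n = 5) in WT and 329190 ± 23072 (SD, n = 5) in GCN2KO cells. KRT1, a keratin gene of differentiating keratinocytes, went the other way from IVL, with 22.4 ± 6.34 (SD, n = 5) and 11.2 ± 2.63 (SD, n = 5). Neither KRT5 nor KRT1 overlapped between genotypes, while KRT10 did, at 1261 ± 286 (SD, n = 5) and 1468 ± 224 (SD, n = 5). The 6 fibroblast markers summed to at most 36.3 CPM, 4 melanocyte markers to at most 3.49 with TYR at 0 in every library, 3 endothelial markers to at most 0.633 and 4 immune cell markers, 2 of them with a mean under 1 CPM, to 16.7 to 65, with the highest sums in WT unwounded cells, and PTPRC, which defines leukocytes, had at most 2 counts in any library. The part of these differences in markers and depth in the results was not tested. On the principal component that held 63.2% of the variance and separated the genotypes, replicate 1 of GCN2KO unwounded (37.5) and replicate 5 of GCN2KO HDW (36.1) lay nearer to WT than the other 8 GCN2KO libraries, which lay at 50.6 to 56.7. Without these 2 libraries the counts of enzymes past both thresholds given below were the same.

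GCN2 is a kinase that senses uncharged tRNA, which builds up when an amino acid runs short, and it phosphorylates the translation initiation factor eIF2α. Phosphorylated eIF2α slows translation as a whole and favours the translation of ATF4, a transcription factor that acts on genes of amino acid synthesis, uptake and tRNA charging. ASNS, which makes asparagine from aspartate and glutamine, is among the best known ATF4 target genes, and an ATF4-binding composite element with the core TGATGNAA lies in its promoter. The transsulfuration route runs from homocysteine through cystathionine to cysteine, with CBS and CTH as its successive enzymes. The proline route starts from glutamate, with ALDH18A1 making the precursor it shares with ornithine and the PYCR enzymes reducing pyrroline-5-carboxylate to proline, while PRODH starts proline breakdown in mitochondria.

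On GRCh38, ASNS spans chromosome 7, 97851677 to 97872542, CTH chromosome 1, 70411218 to 70439851, and CBS chromosome 21, 43053191 to 43076943. ALDH18A1 (95605941 to 95656711) and GOT1 (99396870 to 99430624) are both on chromosome 10. PYCR1 lies on chromosome 17, 81932384 to 81942412, GPT2 on chromosome 16, 46884362 to 46931289, and PRODH on chromosome 22, 18912777 to 18936553.

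To show the sequence at gene starts, the window from 250 bases before to 50 bases after each RefSeq start site at hand (GRCh38.p14) was searched for the letters TGATGNAA on both strands. RefSeq windows were at hand for 5 of the 9 enzymes, ASNS, CTH, CBS, ALDH18A1 and GOT1, in 8 windows, and not for PYCR1, PYCR3, GPT2 and PRODH. The letters were found in 1 window each of ASNS and GOT1, and in 1270 of the 35116 windows of all genes (3.62%), or at 1217 of 27305 genes (4.46%). In ASNS the match lies on the gene strand, 68 to 61 bases before the start (the 30 bases shown are chr7:97872458-97872487, minus strand), and its bases are exonic in longer annotated ASNS transcripts. In GOT1 the match lies on the opposite strand, 198 to 191 bases before the start (30 bases, chr10:99430804-99430833, minus strand), and capitals mark the match in both.
ASNS site: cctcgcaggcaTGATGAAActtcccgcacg
GOT1 site: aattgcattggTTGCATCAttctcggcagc
The 250 bases before the GOT1 start (chr10:99430625-99430874, minus strand) hold that match in their upstream part, and the 200 bases of the CTH promoter that precede its annotated exons (chr1:70411018-70411217, plus strand) are shown because CTH had the largest fold change of the 9 enzymes after HDW in WT cells and between unwounded genotypes. The CTH window held no match and therefore has no capitals, which says only that these letters are not in this window.
GOT1 promoter: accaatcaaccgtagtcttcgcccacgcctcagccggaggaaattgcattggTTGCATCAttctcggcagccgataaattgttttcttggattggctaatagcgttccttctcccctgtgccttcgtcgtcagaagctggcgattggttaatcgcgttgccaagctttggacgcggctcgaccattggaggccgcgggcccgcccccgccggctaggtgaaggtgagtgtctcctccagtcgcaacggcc
CTH promoter: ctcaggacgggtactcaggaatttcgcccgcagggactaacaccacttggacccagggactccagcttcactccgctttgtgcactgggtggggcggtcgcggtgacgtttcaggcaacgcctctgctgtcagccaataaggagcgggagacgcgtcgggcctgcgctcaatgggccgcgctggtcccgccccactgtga

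Levels were compared between enzymes per length, as CPM per kilobase of annotated exon. In WT unwounded cells ALDH18A1 was highest, at 23.9 ± 1.25 (SD, n = 5), followed by PYCR1 at 12.6 ± 2.35, GOT1 at 9.05 ± 0.855, ASNS at 7.63 ± 1.94 and GPT2 at 4.95 ± 0.742. GOT1 and ASNS lay within their spread of each other in that order. PYCR3 (1.58 ± 0.0862), CTH (0.895 ± 0.173) and CBS (0.856 ± 0.164) came next, CTH and CBS did not differ beyond their spread, and PRODH was at 0.0356 ± 0.00918. In WT HDW cells ASNS led at 33.4 ± 4.14, within the spread of ALDH18A1 at 29.4 ± 0.225 and PYCR1 at 27 ± 3.9. Below them came GOT1 (16.9 ± 2.93) and GPT2 (13.4 ± 1.17), within their spread of each other, then CTH (6.25 ± 1.33), PYCR3 (2.26 ± 0.0928) and CBS (1.87 ± 0.101). In GCN2KO unwounded cells GOT1 led at 45.9 ± 4.07, ahead of ASNS at 33.2 ± 3.98 and PYCR1 at 30.7 ± 2.17, and CTH had moved up to 14.6 ± 0.658, above GPT2 at 9.87 ± 1.09, while PYCR3, at 0.575 ± 0.142, had dropped below CBS at 1.26 ± 0.133. In GCN2KO HDW cells GOT1 led again, at 39.3 ± 3.3, and ALDH18A1 (30.2 ± 2.55), PYCR1 (28.6 ± 1.67) and ASNS (26.9 ± 1.81) lay within their spread of each other. Among 13277 protein-coding genes, the level of CTH stood at percentile 22.6 and 59.6 in unwounded and wounded WT cells and at 79.9 and 79.3 in unwounded and wounded GCN2KO cells, while ALDH18A1 stayed between percentile 88.4 and 90.6. Within a group these orders rest on the annotated length: with the longest transcript as the length, ASNS in WT unwounded cells rose from 7.63 to 15.7 ± 3.97 and passed GOT1, and ASNS in place of GOT1 led in GCN2KO cells, at 68.1 ± 8.18 against 56.2 ± 4.99 unwounded and 55.2 ± 3.71 against 48.2 ± 4.04 after HDW.

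**Figure D1:**
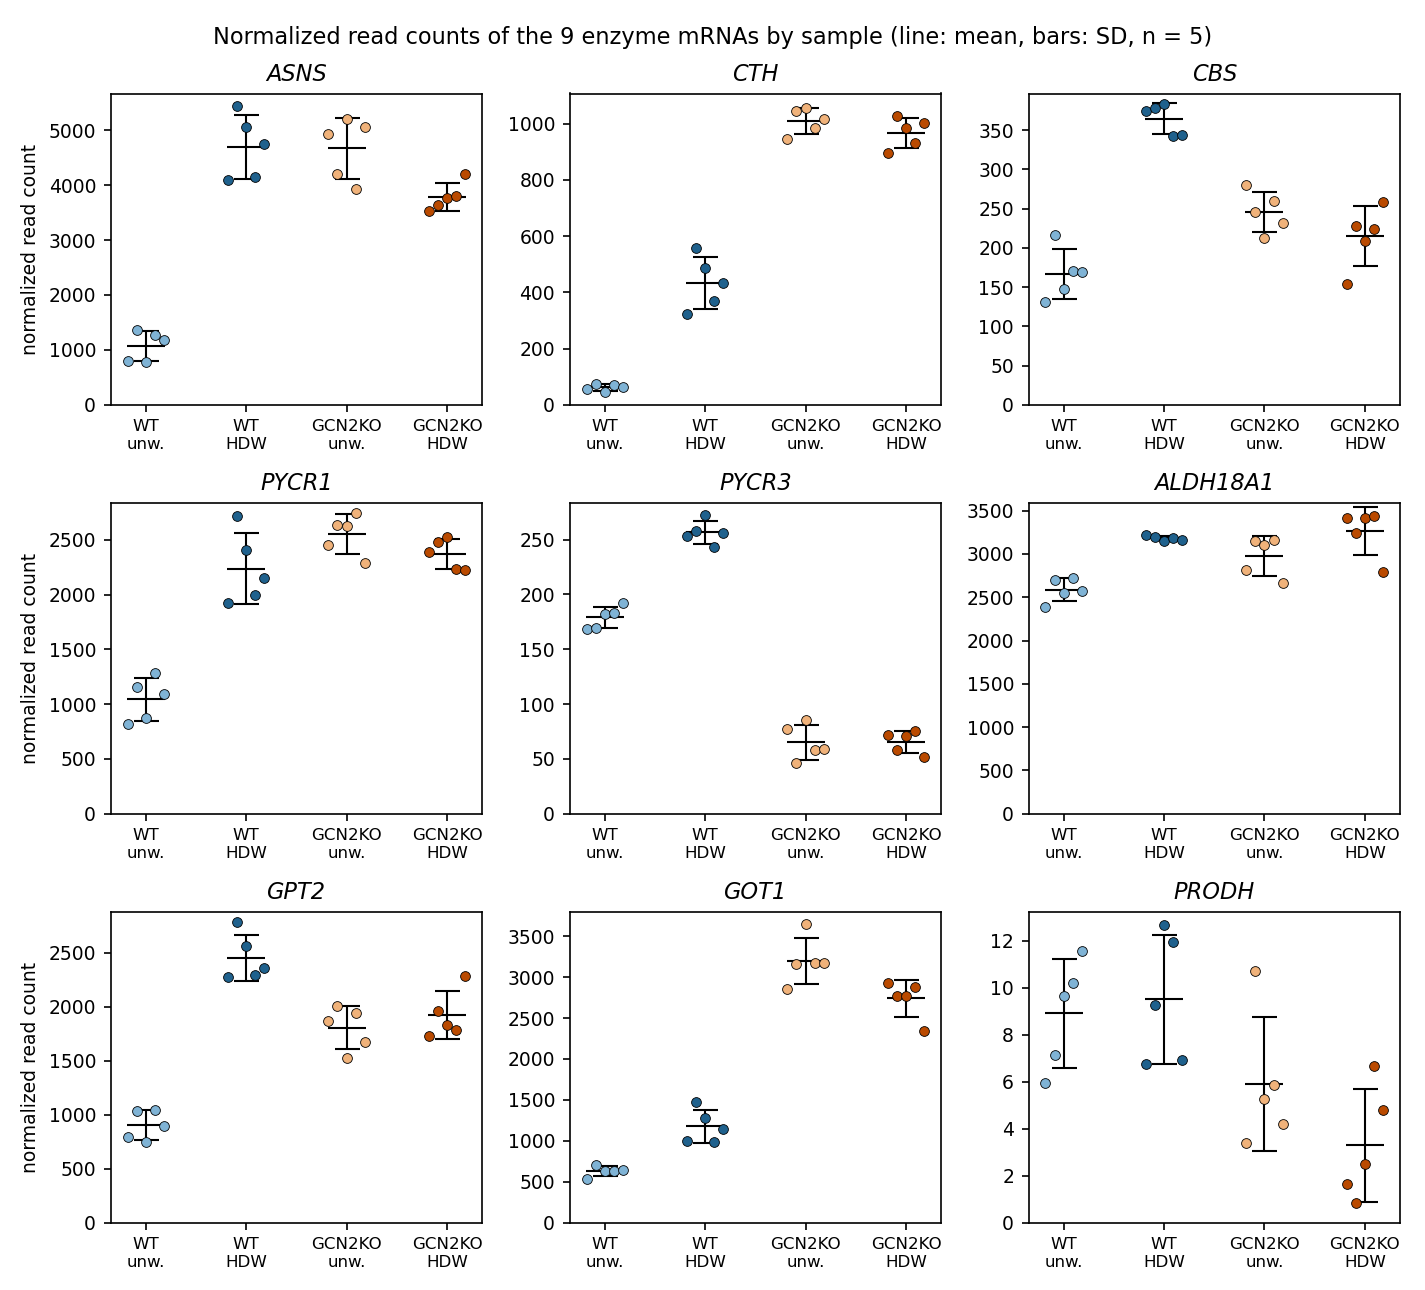
Normalized read counts of the 9 enzyme mRNAs (y axis, each panel from 0) in WT and GCN2KO cells, unwounded (unw.) or after HDW (x axis); each point is 1 sample, the line is the mean and the bars are the SD of 5 replicates. In every panel but PRODH the 5 WT unwounded points lie below all WT HDW points, while the GCN2KO groups overlap each other; PYCR3 is the enzyme whose GCN2KO points all lie below the WT points.

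ASNS had 795, 1354, 770.5, 1265 and 1182 normalized read counts in WT unwounded replicates 1 to 5, and 4088, 5438, 5069, 4153 and 4759 after HDW. In GCN2KO cells the values were 4931, 4209, 5205, 3938 and 5064 unwounded and 3527, 3646, 3764, 3798 and 4199 after HDW. The WT unwounded samples were thus the low group, with none above 1354, and the other 3 groups overlapped between 4088 and 4199. ASNS shares 49.3% of its exonic bases with a long noncoding gene of the annotation used here on the same strand that the count files do not list, so reads of that gene cannot be told from those of ASNS.

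GOT1, the cytosolic aspartate aminotransferase, had 539, 705, 638, 628 and 643 normalized read counts in WT unwounded and 999, 1476, 1278, 992 and 1142 in WT HDW replicates. It had 2854, 3161, 3645, 3166 and 3166 in GCN2KO unwounded and 2929, 2767, 2774, 2877 and 2346 in GCN2KO HDW replicates. No GCN2KO sample came within the range of WT, wounded or not, and WT HDW lay wholly above WT unwounded. GPT2, the mitochondrial alanine aminotransferase, had 795, 1037, 749, 1045 and 899 in WT unwounded and 2277, 2781, 2561, 2298 and 2359 in WT HDW cells. Its GCN2KO values were 1872, 2009.6, 1525, 1939.9 and 1678 unwounded and 1734, 1962, 1834, 1784 and 2289 after HDW. For GPT2 the GCN2KO samples filled the gap between the WT groups, and only replicate 5 of GCN2KO HDW reached the range of WT HDW.

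CTH, which releases cysteine from cystathionine, had 57.6, 74.9, 44.7, 71.5 and 61.7 normalized read counts in WT unwounded and 325, 557, 486, 368 and 432 in WT HDW cells. The GCN2KO values were 945, 1045, 1057, 986 and 1016 unwounded and 897, 1028, 985, 931 and 1002 after HDW. CTH therefore had 3 separate ranges, low in WT unwounded (29 to 77 raw counts a library), intermediate in WT HDW, and highest in both GCN2KO groups, whose ranges overlapped. CBS, which forms cystathionine, had 131, 216, 147, 171 and 169.6 in WT unwounded and 374, 379, 383, 343 and 343 in WT HDW cells. Its GCN2KO values were 279.7, 245, 212, 259.7 and 231 unwounded and 154, 228, 209, 224 and 259 after HDW. Here WT HDW was the high group, and WT unwounded overlapped GCN2KO unwounded through its replicate 2 and GCN2KO HDW through more of its samples. A duplicate copy of CBS on chromosome 21, marked as an artifact of the assembly, held 0 to 13 counts a library. Reads that map equally to both would not be uniquely mapped, so the copy can cost CBS reads. Adding the counts of the copy to CBS cannot bring such reads back, and the place of CBS by level among the enzymes is uncertain.

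ALDH18A1, which makes the precursor of proline and ornithine from glutamate, ranged only from 2391 normalized read counts in a WT unwounded to 3442 in a GCN2KO HDW sample. Its 5 WT HDW samples lay between 3155 and 3218, above all WT unwounded samples (2391 to 2724), while GCN2KO unwounded samples (2661 to 3166) reached from one to the other and GCN2KO HDW samples (2789 to 3442) lay above all WT unwounded samples. PYCR1, the mitochondrial pyrroline-5-carboxylate reductase, had 823, 1154, 871, 1286 and 1089 in WT unwounded and 1919, 2713, 2403, 2000.1 and 2153 in WT HDW cells. Its GCN2KO values were 2456, 2638, 2628, 2744 and 2286 unwounded and 2389.5, 2475, 2529, 2232 and 2225 after HDW. As for ASNS, the WT unwounded group stood apart and the other 3 groups overlapped. An antisense noncoding gene shares 15.6% of the exonic bases of PYCR1 and MYADML2 shares 14.1%, and whether the counting used strand is not given in the sources used here.

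PYCR3, the cytosolic member of that reductase family, had 169, 169.5, 182, 183 and 192 normalized read counts in WT unwounded and 254, 258, 273, 243 and 256 in WT HDW cells. In GCN2KO cells it had 77.3, 46, 86, 58 and 59.1 unwounded and 71.7, 58.6, 71.3, 75.2 and 51.7 after HDW. For PYCR3 every GCN2KO sample lay below every WT sample, while for PYCR1 the GCN2KO samples lay above WT only in unwounded cells and overlapped WT after HDW. PRODH held 1 to 15 raw counts a library, which gave 5.96, 7.14, 9.66, 10.2 and 11.6 normalized read counts in WT unwounded and 6.74, 9.25, 12.7, 12 and 6.92 in WT HDW cells. Its GCN2KO values were 3.41, 10.7, 5.26, 5.88 and 4.22 unwounded and 1.67, 0.837, 2.52, 6.69 and 4.79 after HDW. The WT groups overlapped throughout, and the GCN2KO HDW samples all lay below the lowest WT HDW sample, replicate 4 by little and the others by more, at a depth where 1 count moves a value by much of its size. A pseudogene copy of PRODH in the repeats around it can cost the gene uniquely mapped reads, and DGCR6 on the other strand shares 7.75% of the exonic bases of PRODH.

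To ask how the enzymes respond to a wound when GCN2 is present, WT HDW was compared with WT unwounded cells. CTH and ASNS rose most, by 6.97-fold and 4.35-fold, followed by GPT2 (2.7-fold), CBS (2.18-fold) and PYCR1 (2.12-fold). These 5 of 9 enzymes tested were higher as differentially expressed (DE) genes, meaning an absolute log2 fold change of 1 or more with an adjusted p no higher than 0.05 (edgeR's quasi-likelihood test, Benjamini-Hochberg adjusted over all genes), and none was lower, against 2.62% higher and 1.55% lower of all 15348 genes tested. By adjusted p alone 8 of the 9 rose and none fell, against 26.1% and 25.2% of all genes, and in the same 8 the groups did not overlap, with HDW higher, against 19.2% of all genes (17.7% with HDW lower). The log2 fold change was 2.80 (SE 0.17, adjusted p = 3.74e-09) for CTH. It was 2.12 (SE 0.13, adjusted p = 6.7e-09) for ASNS and 1.43 (SE 0.084, adjusted p = 3.09e-09) for GPT2. The pair at the threshold were CBS at 1.13 (SE 0.094, adjusted p = 1.2e-07) and PYCR1 at 1.09 (SE 0.11, adjusted p = 1.21e-06). GOT1 stood just under it at 0.90 (SE 0.1, adjusted p = 2.69e-06), an increase of 1.86-fold. Smaller increases were found for PYCR3, at 0.51 (SE 0.065, adjusted p = 1.01e-05), and for ALDH18A1, at 0.30 (SE 0.035, adjusted p = 4.73e-06). PRODH had a log2 fold change of 0.003 with an interval of -0.62 to 0.62 (95%), and a change within that interval was not detectable at this depth. The median of the 9 log2 fold changes was 1.09, beside -0.00236 over all genes. RNA of whole cultures was measured, so more cells with the mRNA and more mRNA per cell cannot be told apart here or below.

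In GCN2KO cells the same wound left the enzymes near their unwounded levels. Of the 8 tested none was a DE gene, by edgeR or by DESeq2, against 0.475% higher and 0.196% lower of all 15791 genes tested with edgeR. By adjusted p alone ASNS fell and the other 7 did not pass the test (11.9% of all genes rose and 10.8% fell), the groups overlapped for all 8 (7.52% of all genes were higher and 7.65% lower without overlap), and at an unadjusted p under 0.05 GOT1 was below its unwounded level as well. The log2 fold change of ASNS was -0.29 (SE 0.083, adjusted p = 0.0237), a decrease of 1.22-fold in groups that overlap. That call was lost in a fit of all 20 libraries (adjusted p = 0.0542) and without any one of 6 libraries (replicates 1, 3 and 5 of GCN2KO unwounded and 1, 2 and 3 of GCN2KO HDW), with adjusted p up to 0.0638. GOT1 had -0.21 (SE 0.077, adjusted p = 0.0583), and passed with DESeq2 (adjusted p = 0.0313) and with a filter at a mean of 50 counts (adjusted p = 0.0496). The 95% interval of the log2 fold change was -0.18 to 0.086 for CTH, -0.24 to 0.05 for PYCR1 and -0.10 to 0.30 for GPT2. It was -0.46 to 0.087 for CBS, -0.02 to 0.30 for ALDH18A1 and -0.36 to 0.36 for PYCR3. Except for ALDH18A1, each of these intervals ended below the log2 fold change of the same enzyme in WT cells. The median of the 8 log2 fold changes was -0.0717, beside -0.000966 over all genes.

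**Figure D2:**
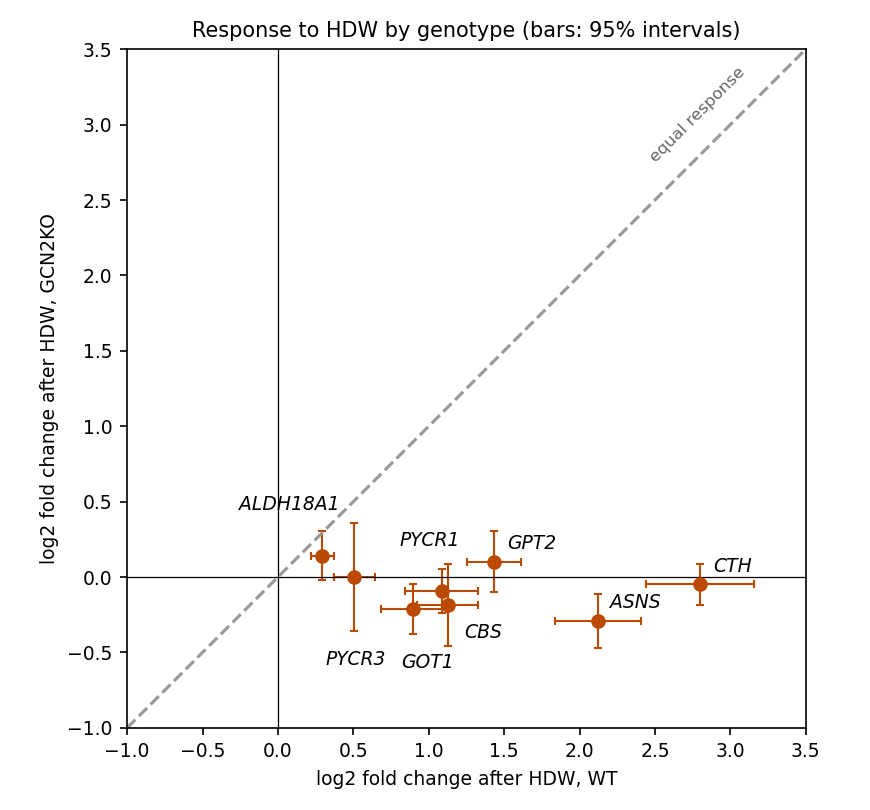
Log2 fold change after HDW in WT (x axis) and in GCN2KO cells (y axis) for the 8 enzymes tested in both, with 95% intervals and a dashed line of equal response. CTH and ASNS lie farthest to the right (2.80 and 2.12) and near 0 on the y axis (-0.049 and -0.29); ALDH18A1 is nearest to the dashed line.

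Whether the response to HDW differed between genotypes was tested as the interaction of genotype and HDW over all 20 libraries. The other comparisons use the same libraries, so the interaction is not independent of them. By the values above, GCN2KO unwounded samples already overlapped WT HDW samples for ASNS and PYCR1 and lay above them for CTH and GOT1. For 6 of the 9 enzymes the response was lower in GCN2KO cells past both thresholds, and for none higher, against 2.15% lower and 1.16% higher of all 16536 genes tested. By adjusted p alone 7 were lower and 0 higher, against 12.5% and 11.2% of all genes. CTH had the largest difference of the responses, -2.86 (SE 0.17, adjusted p = 5.69e-11) on the log2 scale, and ranked 3 of all genes by adjusted p. ASNS followed with -2.43 (SE 0.17, adjusted p = 9.22e-10) and rank 10. GPT2 had -1.35 (SE 0.13, adjusted p = 1.34e-07), and CBS had -1.32 (SE 0.17, adjusted p = 3.79e-06). PYCR1 had -1.20 (SE 0.14, adjusted p = 1.67e-06), and GOT1 had -1.12 (SE 0.13, adjusted p = 1.67e-06). PYCR3 had -0.53 (SE 0.17, adjusted p = 0.0266), and this call was lost without any one of 4 libraries (replicates 1 and 3 of GCN2KO unwounded, 2 and 5 of GCN2KO HDW) and without the 2 GCN2KO libraries nearest to WT (log2 difference -0.40, adjusted p = 0.0927). For ALDH18A1 the difference was -0.17 (SE 0.085, adjusted p = 0.164) with an interval of -0.34 to 0.009, and for PRODH -0.93 (SE 0.54, adjusted p = 0.223) with an interval of -2.04 to 0.18.

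In unwounded cells, the comparison of GCN2KO with WT asks which enzymes differ before any wound. It shares the WT unwounded samples with the comparison of HDW in WT cells. CTH was 16.3-fold higher in GCN2KO cells, GOT1 5.08-fold, ASNS 4.35-fold and PYCR1 2.44-fold, while PYCR3 was 2.72-fold lower. Of the 8 enzymes tested these 4 were higher and 1 lower as DE genes, against 8.21% and 8.22% of all 15348 genes tested. By adjusted p alone 7 were higher and 1 lower, against 33.4% and 33.1% of all genes. The groups did not overlap for 5 that were higher and 1 that was lower, against 26.3% and 27%. The log2 fold change of CTH was 4.03 (SE 0.11, adjusted p = 2.49e-13), which ranked 2 among all genes by adjusted p. GOT1 had 2.35 (SE 0.08, adjusted p = 2.16e-12) and rank 21. ASNS had 2.12 (SE 0.14, adjusted p = 2.65e-09), and PYCR1 had 1.29 (SE 0.1, adjusted p = 2.27e-08). PYCR3 had -1.44 (SE 0.14, adjusted p = 1.57e-07). GPT2, at 0.997 (SE 0.1, adjusted p = 2.86e-07), just missed the fold change threshold and had no overlap between groups. It passed that threshold, for 5 higher enzymes, with DESeq2 (1.005), with DESeq2 size factors (1.005), with the replicate block (1.002) and, by less, with a filter at a mean of 50 counts. CBS had 0.56 (SE 0.12, adjusted p = 0.000655) and ALDH18A1 had 0.21 (SE 0.067, adjusted p = 0.0125), both with overlapping groups, and the call of ALDH18A1 was lost without replicate 1 of WT unwounded (adjusted p = 0.0503). PRODH was not tested in this fit, and without the filter its log2 fold change was -0.74 (SE 0.43, adjusted p = 0.189). The median of the 8 log2 fold changes was 1.14, beside 0.00424 over all genes.

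After HDW, the same comparison of genotypes asks which differences remain once both have been wounded. CTH and GOT1 were again higher in GCN2KO cells, by 2.23-fold and 2.32-fold, PYCR3 was 3.94-fold lower, and ASNS, GPT2 and CBS were below WT by smaller amounts. As DE genes 2 of the 8 tested were higher and 1 lower, against 7.1% and 7.83% of all 15855 genes tested. By adjusted p alone 2 were higher and 4 lower, against 35.9% and 35.8% of all genes, and for 8 enzymes these adjusted p counts are not far from those shares. The groups did not overlap for 2 that were higher and 2 that were lower, against 27.9% and 29.3%. The log2 fold change was 1.22 (SE 0.099, adjusted p = 9.33e-08) for GOT1 and 1.16 (SE 0.11, adjusted p = 5.15e-07) for CTH, both without overlap between groups. PYCR3 had -1.98 (SE 0.096, adjusted p = 9.63e-10), and CBS had -0.77 (SE 0.11, adjusted p = 1.53e-05), again without overlap. GPT2 had -0.35 (SE 0.076, adjusted p = 0.000814) and ASNS had -0.31 (SE 0.076, adjusted p = 0.00207), with overlapping groups. PYCR1 had 0.084 (SE 0.082, adjusted p = 0.37) with an interval of -0.092 to 0.26. ALDH18A1 had 0.035 (SE 0.053, adjusted p = 0.561) with an interval of -0.078 to 0.15, and passed the test, at a log2 fold change of 0.087 (adjusted p = 0.0228), without replicate 5 of GCN2KO HDW. PYCR1 passed, at 0.16 (adjusted p = 0.038), without replicate 2 of WT HDW. PRODH was left out by the filter on weakly expressed genes, and without the filter its log2 fold change was -1.69 (SE 0.43, adjusted p = 0.00161), on 8 to 15 counts a library in WT HDW and 1 to 5 in GCN2KO HDW cells.

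**Figure D3:**
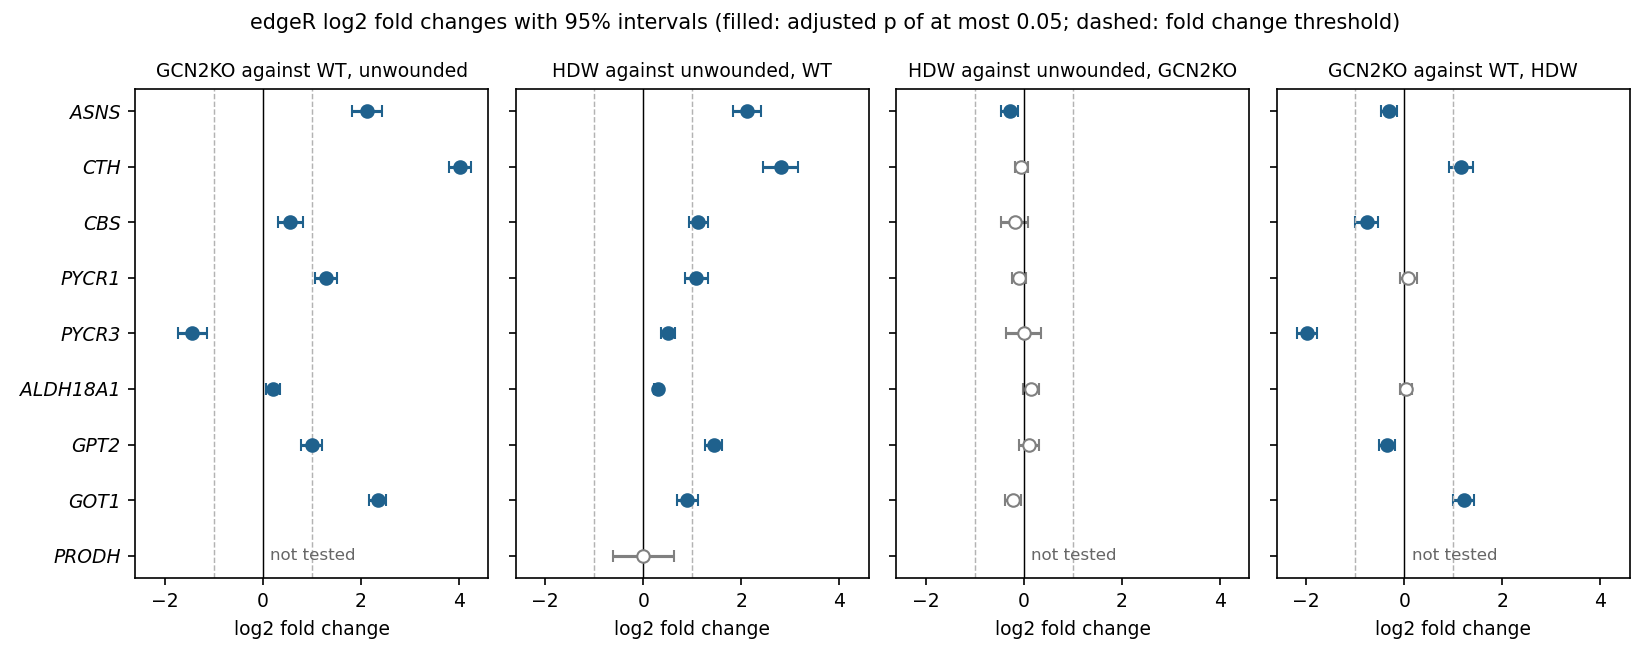
Log2 fold changes of the 9 enzymes (rows) in the 4 comparisons (panels), with 95% intervals; filled points have an adjusted p of at most 0.05 and dashed lines mark the log2 fold change threshold of 1 in size. In WT cells HDW moved 8 enzymes to the right of 0, while in GCN2KO cells the 8 tested points lie between -0.29 and 0.14; panels that share a group share its samples.

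Relatives of GOT1 and GPT2 in the other cell compartment gave values of another size. GOT2, the mitochondrial counterpart of GOT1, had log2 fold changes of 0.12 (SE 0.036, adjusted p = 0.0116) after HDW in WT cells and -0.036 (SE 0.058, adjusted p = 0.597) in unwounded GCN2KO against WT cells. After HDW in GCN2KO cells GOT2 had 0.205 (SE 0.058, adjusted p = 0.0228), without overlap between groups. GPT, the cytosolic alanine aminotransferase, held few reads, averaging 18 ± 8.86 (SD, n = 5) normalized read counts before and 8.22 ± 2.16 (SD, n = 5) after HDW in WT cells. It fell after HDW in WT cells, with a log2 fold change of -1.07 (SE 0.31, adjusted p = 0.0104), in groups that overlapped. Within each of these pairs the difference from the described enzyme was not tested.

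The other genes of the same pathways were taken from 3 lists, of 16 genes around asparagine, aspartate, alanine and glutamate, 10 around proline and 22 around the methionine cycle, transsulfuration and cysteine. Leaving out the 9 enzymes and the copy of CBS, 37 genes remained. In WT cells 29 of them were tested after HDW, of which 8 rose and 14 fell by adjusted p, with 0 higher and 2 lower as DE genes and a median log2 fold change of -0.0897. Over all genes 26.1% rose and 25.2% fell by adjusted p, 2.62% and 1.55% as DE genes, with a median of -0.00236. In unwounded GCN2KO against WT cells 28 were tested, of which 2 were higher and 16 lower, with 0 and 4 as DE genes and a median of -0.33, beside 33.4% and 33.1% of all genes by adjusted p, 8.21% and 8.22% as DE genes, and a median of 0.00424. After HDW 7 of 28 were higher and 18 lower in GCN2KO cells, with 2 and 3 as DE genes and a median of -0.47, beside 35.9% and 35.8% of all genes by adjusted p and 7.1% and 7.83% as DE genes. The 2 higher DE genes, ASRGL1 and ASPA, were both weakly expressed. For HDW in GCN2KO cells the counts were 3 higher and 2 lower of 28, with no DE gene, beside 11.9% and 10.8% of all genes by adjusted p. In the interaction 7 of 30 were higher and 4 lower, with 2 and 0 past both thresholds, beside 11.2% and 12.5% of all genes by adjusted p and 1.16% and 2.15% past both.

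GLUL, glutamine synthetase, which makes the nitrogen donor that ASNS uses, was the DE gene with the most reads among them. It had 73754, 68826, 76738, 68970.0 and 75241 normalized read counts in WT unwounded and 42108, 30179, 36214, 40255 and 41044 in WT HDW cells. It had 26888, 15082, 14891, 13146 and 16093 in GCN2KO unwounded and 7529, 10299, 10217, 10710.0 and 19324 in GCN2KO HDW cells. The WT unwounded samples were highest, the WT HDW samples came next, and both GCN2KO groups lay below every WT sample and overlapped each other, with replicate 1 of GCN2KO unwounded and replicate 5 of GCN2KO HDW, the 2 libraries nearest to WT, the highest of their groups. Its log2 fold change was -2.07 (SE 0.15, adjusted p = 8.12e-09) in unwounded and -1.71 (SE 0.2, adjusted p = 2.49e-06) in wounded GCN2KO against WT cells. After HDW in WT cells GLUL fell, with -0.94 (SE 0.073, adjusted p = 5.96e-08), just under the fold change threshold, and in GCN2KO cells it had -0.56 (SE 0.23, adjusted p = 0.0906).

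In the methionine cycle, which supplies homocysteine to CBS, MTR, the methionine synthase, was lower in unwounded GCN2KO than in WT cells, at -1.02 (SE 0.088, adjusted p = 4.25e-08). AHCY, which releases homocysteine, was lower in GCN2KO cells after HDW, at -1.13 (SE 0.085, adjusted p = 4.46e-08). Downstream of cysteine, SUOX, sulfite oxidase, was lower in unwounded GCN2KO cells, at -1.37 (SE 0.1, adjusted p = 7.51e-09). ETHE1, a mitochondrial persulfide dioxygenase, was lower in wounded GCN2KO than in wounded WT cells, at -1.28 (SE 0.064, adjusted p = 1.22e-09). By adjusted p, MTR, AHCY, SUOX and ETHE1 were each lower in the other wounding state too, short of the fold change threshold. After HDW, MTR had -0.74 (SE 0.072, adjusted p = 5.05e-07) and SUOX -0.96 (SE 0.092, adjusted p = 4.32e-07). In unwounded cells AHCY had -0.63 (SE 0.093, adjusted p = 1.87e-05) and ETHE1 -0.98 (SE 0.086, adjusted p = 5.34e-08). Not every gene of the methionine cycle was lower in GCN2KO cells. MTRR had 0.475 (SE 0.062, adjusted p = 4.91e-06) unwounded and 0.405 (SE 0.049, adjusted p = 4.15e-06) after HDW. MAT2A had -0.304 (SE 0.061, adjusted p = 0.000349) unwounded and 0.447 (SE 0.046, adjusted p = 9.07e-07) after HDW. CSAD, which acts on the way from cysteine to taurine, had an interaction of 1.10 (SE 0.25, adjusted p = 0.00263). After HDW it fell in WT cells, at -0.685 (SE 0.12, adjusted p = 0.000158), and had 0.432 (SE 0.21, adjusted p = 0.145) in GCN2KO cells. Replicate 5 of GCN2KO unwounded had 156 normalized read counts of CSAD, against 65.9 to 85.7 in the rest of that group. Among weakly expressed genes, HOGA1 was lower in unwounded GCN2KO cells, at -1.53 (SE 0.31, adjusted p = 0.000428), where it had 6.62 ± 3.08 (SD, n = 5) normalized read counts against 20.3 ± 6.49 (SD, n = 5) in WT. ASRGL1, an asparaginase, was higher in GCN2KO cells after HDW, at 1.498 (SE 0.3, adjusted p = 0.000407), with 10.9 ± 1.77 (SD, n = 5) against 3.82 ± 1.68 (SD, n = 5) normalized read counts. In unwounded cells, where the filter left ASRGL1 untested, it averaged 9.99 ± 2.62 (SD, n = 5) in GCN2KO and 3.93 ± 2.39 (SD, n = 5) in WT. Its interaction was 0.008 (SE 0.85, adjusted p = 0.998). ASPA, which cleaves N-acetylaspartate, fell after HDW in WT cells, with -2.06 (SE 0.4, adjusted p = 0.000547). It stood above WT in wounded GCN2KO cells, with 1.36 (SE 0.38, adjusted p = 0.00522), with an interaction of 1.45 (SE 0.49, adjusted p = 0.0341). ASPA held 8 to 15 raw counts a library in WT unwounded, 1 to 9 in WT HDW and 6 to 12 in GCN2KO HDW cells. ASRGL1 held 2 to 7 in WT HDW and 6 to 16 in GCN2KO HDW cells, so the values of both genes rest on few reads. HOGA1 shares 16.3% of its exonic bases with another gene, ETHE1 15%, and ASRGL1 16.8% with 2 noncoding genes. Their counts may be uncertain for this reason, and the share of reads in doubt was not measured.

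**Figure D4:**
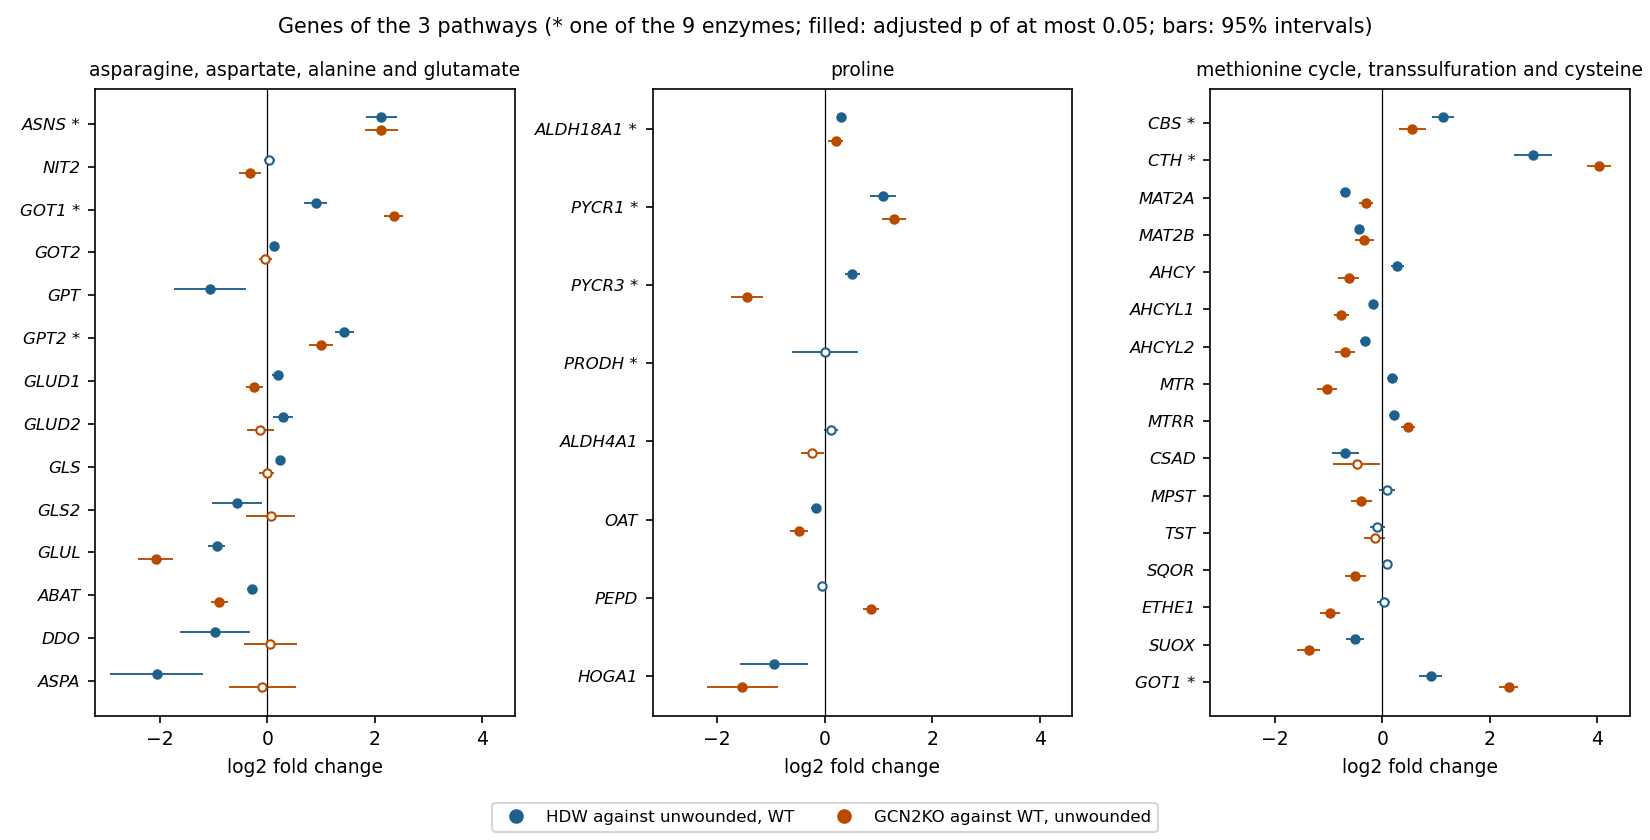
Log2 fold changes with 95% intervals of tested genes of the 3 pathway lists (rows, 1 gene not shown, the 9 enzymes with an asterisk) after HDW in WT cells (blue) and in unwounded GCN2KO against WT cells (orange); filled points have an adjusted p of at most 0.05, and both comparisons use the WT unwounded samples. CTH, ASNS and GOT1 reach beyond 2 in at least 1 comparison, and GLUL, HOGA1, PYCR3, SUOX and MTR lie below -1 in the comparison of genotypes.

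Within groups, where genotype and wounding are constant, the deviations of the samples from their group means gave a Pearson's r of 0.80 for CTH and PYCR1, 0.77 for ASNS and CTH, 0.75 for CBS and GPT2 and 0.68 for ASNS and PYCR1 over the 20 samples. ALDH18A1 had 0.51 with PYCR1 and 0.0072 with ASNS. PYCR3 had -0.49 with GPT2 and between -0.26 and 0.34 with the other 7. PRODH had between -0.19 and 0.24 with the other 8. These values describe the samples, which share depth and normalization across genes, and they carry no test.

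**Figure D5:**
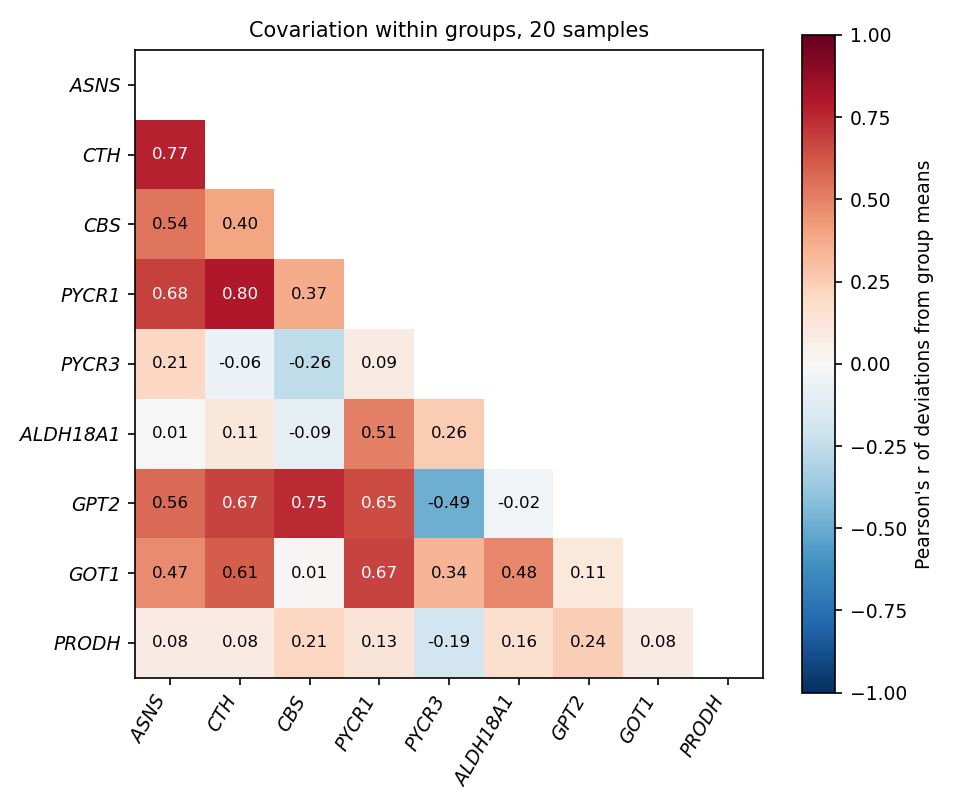
Pearson's r between the deviations of 2 enzymes from their group means over the 20 samples (color scale from -1 to 1, value in each cell; only one triangle is drawn). CTH, ASNS, PYCR1 and GPT2 have values of 0.56 to 0.80 with each other, and PYCR3 has its lowest value, -0.49, with GPT2.

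Over all 20 samples the gene whose log2 level ran most like that of ASNS among 16535 others was MARS1 (Pearson's r = 0.991), then YARS1 (0.988), both aminoacyl-tRNA synthetases, and EREG (0.984). For CTH they were ENTPD6 (0.994), TRIB3 (0.994) and STC2 (0.99). For PYCR1 they were the amino acid transporter gene SLC1A4 (0.987), the synthetase gene AARS1 (0.982) and HYOU1 (0.981), an ER chaperone. For GPT2 they were MTHFD1L (0.988), of mitochondrial folate metabolism, RPS6KA2 (0.987) and the glycine transporter gene SLC6A9 (0.977). For GOT1 they were UBE2J1 (0.994), TARS1 (0.99) and SRPRB (0.99). Lower likeness was found for CBS, with JDP2 (0.936), CKAP4 (0.92) and EMP3 (0.919), and for ALDH18A1, with EDEM1 (0.94), LIPG (0.937) and FRMD5 (0.935). PYCR3 ran most like SPG21 (0.979), EXT2 (0.978) and APEH (0.976), and PRODH like HOXA4 (0.816), ahead of 2 genes with no symbol (0.814 and 0.78). The points share the 4 groups, so these values describe the likeness of the group pattern.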

How the data were processed

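RNA-seq of 20 NTERT samples was used, 5 in each of 4 groups taken from the sample labels. The authors sent total RNA to a sequencing provider for paired-end sequencing, whose pipeline trimmed the reads (Trimmomatic), mapped them to GRCh38 (STAR) and counted the uniquely mapped reads of each gene (featureCounts). The files hold these raw counts as deposited, per Ensembl gene and unfiltered. The annotation release and strandedness are not given in the sources used here. Of the 57500 genes, 56410 matched GENCODE release 44, which gave symbols, positions and exon lengths.

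Counts were tested with edgeR 4.0.16 in R 4.3.3 (TMM, filterByExpr with a minimum count of 10 and a minimum total count of 15, glmQLFit and glmQLFTest). Each comparison used its 10 samples and the interaction all 20. P-values were Benjamini-Hochberg adjusted over all genes tested. DE genes had an absolute log2 fold change of 1 or more and an adjusted p no higher than 0.05, the thresholds of the study. SE is the log2 fold change divided by the square root of F. Depth was 14083504 to 34611570 counts. Principal components and likeness (Pearson's r) used log2 CPM with a prior count of 2.

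The enzymes, lists and tests were chosen with earlier results of these data known. Named pathway genes are, per list and comparison, the DE genes of smallest adjusted p, up to 2 in each direction, and per enzyme the 3 genes of highest r. GOT2 and GPT were named as relatives, MTRR and MAT2A as genes of the methionine cycle with higher values, and GLUL given per sample, after values were seen. Alternatives were DESeq2 1.42.0, its size factors, library size alone, adjusted p alone, a single fit of all 20 samples, no filter, a filter at a mean of 50 counts, the replicate block, CBS with its copy, the longest transcript as length, and each sample left out. Replicate numbers are in the labels, but no source says that equal numbers share a day or batch, and deviations of equal numbers correlated between -0.82 and 0.558, so the main tests are unpaired. On simulated data edgeR recovered 199 of 200 changed genes for GCN2KO against WT unwounded, 200 of 200 in each other comparison, and 200 of 200 interactions with 4 unchanged genes called. The planted changes all lay beyond the fold change threshold, in genes with a mean above 50 counts. Every gene had the same small spread and no sample effects, so near complete recovery was set by these choices. The simulation therefore checks the code and says nothing of enzymes near the threshold or of PRODH. Of the proline list, 1 gene is not reported here by name. Promoter windows came from RefSeq (GRCh38.p14).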

Additional observations from a re-analysis of the deposited data

Results flagged for a closer look

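Among 36 sets of 5 samples (9 enzymes in 4 groups), 1 held a sample far from the others. GOT1 in replicate 5 of GCN2KO HDW had 2346 normalized read counts, against 2767 to 2929 in the other 4. Its gap was 0.722 of the range of the group, above Dixon's 95% critical value of 0.71, and chance gives such a sample in about 1 of 20 sets. This library was also 1 of the 2 GCN2KO libraries nearest to WT on the leading principal component.

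By the interaction test, 7 enzymes responded differently to HDW in WT and GCN2KO cells, with log2 differences (GCN2KO minus WT) of -2.429 for ASNS, -2.862 for CTH, -1.322 for CBS, -1.197 for PYCR1, -0.53 for PYCR3, -1.346 for GPT2 and -1.124 for GOT1.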

How the results depend on the processing

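Of 829 values of single genes under another setting, 799 kept their direction and their side of the adjusted p threshold, 13 lost the call, 6 gained one and 11 changed sign. Of those 799, 487 came from fits with a single sample left out, which share most libraries with the main fit and can differ little from it. Of 206 counts of enzymes called, 199 stayed within 1.5 times. With adjusted p alone, by its construction, 7 enzymes were higher in unwounded GCN2KO against WT cells and 4 lower after HDW, 8 rose after HDW in WT cells and 1 fell in GCN2KO cells. With DESeq2, with no filter or with all 20 samples in one fit, 2 enzymes were lower in GCN2KO against WT cells after HDW, since PRODH was then tested. With any one sample left out, 4 to 5 enzymes were higher in unwounded GCN2KO cells (GPT2 crossing the fold change threshold) and 1 lower, 2 higher and 1 lower after HDW, 5 higher and 0 lower after HDW in WT, 0 and 0 in GCN2KO cells, and 0 and 6 in the interaction.

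Sign changes came only in 2 values near 0. PRODH after HDW in WT cells had -0.036 with library size alone and -0.082 to 0.115 with samples left out (-0.076 and -0.055 without replicates 1 and 2 of WT unwounded, -0.082 without replicate 4 of WT HDW). PYCR3 after HDW in GCN2KO cells had 0.013 with library size alone, 0.017 with the replicate block, 0.125 without the 2 GCN2KO libraries nearest to WT (chosen after seeing the data), and -0.089 to 0.109 with samples left out (0.055, 0.109, 0.039 and 0.069 among the rest). The cause was not tested. In unwounded GCN2KO against WT cells the log2 fold change of GPT2 became 1.005 with DESeq2 or its size factors and 1.002 with the replicate block, and also passed 1 with a filter at a mean of 50 counts, so that 5 enzymes were higher. The replicate block changed no other call. With the longest transcript as length, levels of ASNS and CBS per length rose most, to 15.7 and 2.19 in WT unwounded cells. Counts of 1 to 15 a library limit what can be said of PRODH.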
